A study of Mus musculus with 12 samples.

Results

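The myosin family comprises the genes of the conventional (class II) myosin heavy chains and of the unconventional myosins. Its members were taken by name, as every gene symbol of the count files made of Myh or Myo, a number and at most a short suffix, with at least 1 count. This gave 38 genes of the 22609 in the files (18375 of which had at least 1 count), 14 of class II and 24 unconventional myosins of 11 classes. The lowest members were Myo3a, with 1 count in all, and Myh1, Myh2 and Myo1f, with 3 counts each, and 0 matching symbols had no count. The family was selected on the measured values of 1 gene, Myo5b, since its fall during differentiation is among the steadiest. The values of Myo5b against proliferating cells are therefore given as a description, and no test of that gene alone is used. Counts and sums over the family include Myo5b unless it is said to be left out.

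Myosins are motor proteins that bind actin filaments and turn the energy of ATP into force. Class II myosins assemble through long coiled-coil tails into bipolar filaments that contract muscle and, in other cells, the cell cortex and the cytokinetic ring. Unconventional myosins act singly or as dimers, and their tails bind membranes, vesicles, organelles or signalling proteins. In neural cells, myosins take part in division, migration, the outgrowth of processes and the traffic of cargo into them.

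The cells were mouse ANS cells, adherent neural stem cells derived from brain at E14.5, which the study used as a model of inhibitory neuron differentiation. T0 cells (3 libraries) proliferated in growth medium with 20 ng/ml each of FGF2 and EGF. T1 cells (3 libraries) were collected 2 days after the change to medium D1, which holds 10 ng/ml FGF and 2 ng/ml EGF. T2 (4 libraries) and T3 (2 libraries) were 2 and 10 days after the change to medium B, with 10 ng/ml FGF-2 and 20 ng/ml BDNF and no EGF listed. The main text of the paper counts the 10 days of T3 from T2, whereas the labels count them from the change of medium. The cells were a cultured line and not tissue. The series' design text calls the libraries biological replicates, and no label says whether they came from separate derivations, so p-values measure the spread between these cultures. Values below follow the replicate numbers, which are 1, 2 and 3 for T0 and T1 cells, 1 to 4 for T2 and 1 and 4 for T3.

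Libraries held 8910724 to 16631614 reads counted on genes, of which 0.308% to 0.514% fell on myosin genes. The labels were checked against cell type markers. The summed CPM (normalized counts, scaled to library size) of 7 neuronal markers was 16.2 to 65.1 at T0, 477 to 546 at T1, 622 to 766 at T2 and 508 to 1080.1 at T3. The 6 progenitor markers summed to 5495 to 6561 CPM at T0 and to 3739 to 4842 CPM afterwards. Vim and Nes made up most of these sums, and Nes at T1, 1341 to 1409 CPM, lay within its T0 range of 846 to 1815 CPM. Pax6 was at 40.4 to 56.2 CPM at T0 and 41.5 to 63.9 CPM later. The 7 markers of the oligodendrocyte lineage summed to 3156 to 3624 CPM at T0, 3957 to 4556 CPM at T1 and T2, and 4976 and 5973 CPM at T3. Olig1 and Olig2 made up most of these sums. Of the others, Pdgfra rose from 3.67 to 30.0 CPM at T0 to 67.6 to 227 CPM later, while Sox10 fell from 0.706 to 3.36 CPM to 0.108 to 0.676 CPM. The 6 astrocyte markers summed to 2573 to 3880.4 CPM at T0 and 1988 and 2082 CPM at T3. Mki67, a marker of cycling cells, was at 569, 601 and 859.7 CPM at T0 and at 31.4 to 84.3 CPM at T1. It was still read at 44.4 to 114 CPM at T2, labelled as absent proliferation, and at 195 and 313 CPM at T3. T0 replicate 3 stood apart from the other T0 libraries, for example with 0.494 CPM of Gfap against 146 and 148 CPM. For the members described, calls that change without it are given both ways. In bulk RNA, fewer cells of a type and less RNA per cell cannot be told apart.

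Most myosin motors hydrolyse ATP in the motor domain, and the part of the coding sequence that encodes the phosphate-binding loop (Walker A motif) shows what the members share beyond their names. The loop was found in 35 of 36 members searched, and in 0.35% of 22556 other genes. Myo16 was the member without a match to these letters, and 2 members were not searched. The 24 coding bases are printed for the nonmuscle class II genes, for the heart and slow muscle genes that changed and for the most abundant unconventional members. Capitals mark bases that differ from Myh9 at the same place. Coordinates are on NCBIM37, the build that UCSC names mm9, with the strand after them.
Myh9 (chr15:77626460-77626483, minus, exon 5): ggggagtctggagcagggaagaca
Myh10 (chr11:68558820-68558843, plus, exon 5): ggTgaAtcGggTgcCgggaagaca
Myh14 (chr7:51913383-51913406, minus, exon 4): ggAgagtctggCgcTgggaagacG
Myh6 (chr14:55581945-55581968, minus, exon 7): ggAgaAtcCggagcGgggaagacT
Myh7b (chr2:155441138-155441161, plus, exon 7): ggAgagtcGggGgcCggTaagacG
Myo6 (chr9:80090031-80090054, plus, exon 6): ggAgaAtcAggagcTggCaaAaca
Myo10 (chr15:25651926-25651949, plus, exon 5): ggggaAAGCggagcTgggaaAacG
Myo18a (chr11:77632203-77632226, plus, exon 6): ggTAGTAGtggCAGTggCaagacT
Among these, Myh14 differed from Myh9 at 4 of the 24 bases, Myh10 and Myh6 at 5, Myh7b and Myo6 at 6, Myo10 at 7 and Myo18a at 12.

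Per unit of transcript length, the most abundant myosin message of these cells was Myo10, which encodes a motor of filopodia tips. Its FPKM (fragments scaled to transcript length and library size) was 231 ± 88.2 in T0 cells, 397 ± 35.9 in T1, 296 ± 42.6 in T2 and 216 ± 121 in T3 (SD, n = 3, 3, 4 and 2). Myo6 followed, with mean levels of 155, 107, 81.0 and 70.5 FPKM, and Myo18a was the third, with 110, 83.1, 75.2 and 67.6 FPKM. Lower levels were read for Myh10 (65.3 FPKM at T0) and Myo5a (49.1 FPKM). Myh9 stood at 23.2 FPKM at T0. Counts divided by annotated exon length gave the same first member at each time point, but placed Myo18a between the 6th and the 9th, and Myh10 ahead of Myo6 at T2 and T3, so these places depend on the transcript length that is used. The counts of Myo10 made up 28.5% of all myosin counts in T0 cells, and 44.0%, 41.4% and 33.7% later.

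**Figure D1:**
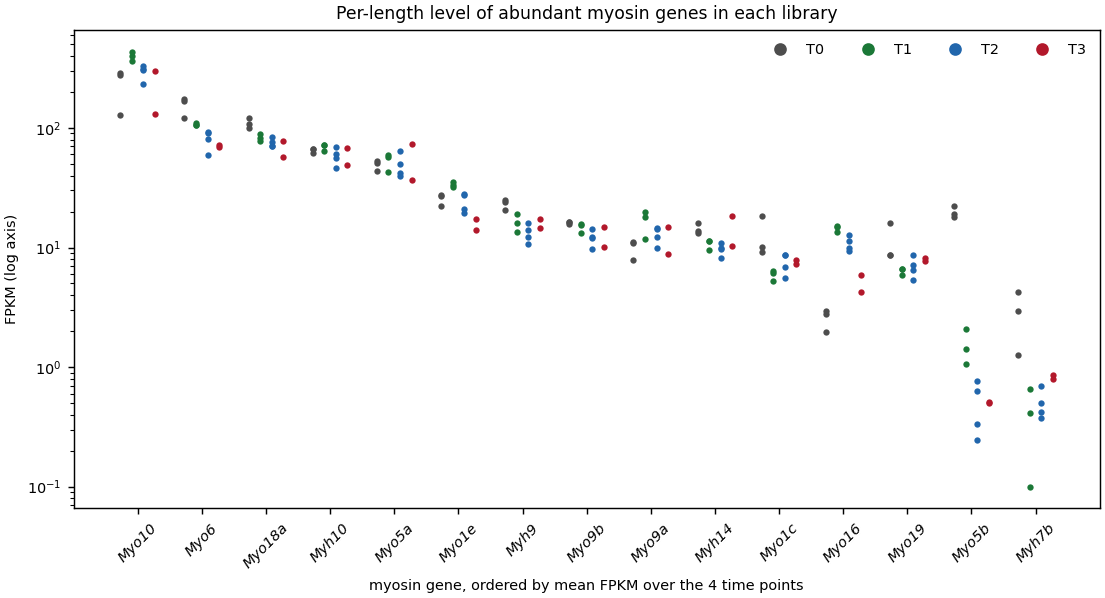
Per-length level (FPKM, log axis) of abundant myosin genes, ordered from left to right by mean FPKM, where each point is 1 library coloured by time point. Myo10 stands first with time point means of 216 to 397 FPKM, and Myo5b drops from 19.8 FPKM at T0 to about 0.5 FPKM at T2 and T3, 0.495 and 0.508.

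Each later time point was compared with T0, and the comparisons share the 3 T0 libraries. At T1, 22 members had enough counts for the test, and 5 were lower (22.7%) and 3 higher (13.6%) than at T0 by edgeR's quasi-likelihood test at an adjusted p under 0.05. Among all 12364 genes tested, 16.8% were lower and 15.1% higher. At T2, 10 of 24 members tested were lower (41.7%) and 5 higher (20.8%), and among all genes 21.8% were lower and 21.4% higher. The 5 include Myh11, which passed the filter on low counts only through T2 libraries. The 10 include Myo1a, which needed the T0 libraries, where it was high, to pass that filter. At T3, with 2 libraries, 1 of 25 was lower and 1 higher (4% each), beside 1.41% and 3.31% of all genes. Without Myo5b, which chose the family, the lower genes numbered 4 of 21, 9 of 23 and 0 of 24. Myh9, Myh7b, Myo1c and Myo19, lower at T1, were also called lower at T2. Likewise Myh6, Myo16 and Myo18b, higher at T1, were called higher at T2. With 8 and 4 counts in T0 replicate 3, Myh6 and Myo18b needed T1 or T2 libraries, where they were high, to pass the filter on low counts. The median log2 fold change of the members tested, Myo5b left out, was -0.09, 0.2 and 0.16 in these comparisons (-0.142, 0.0775 and 0.149 with it), and that of all genes lay within 0.015 of 0. All libraries of a group lay below all T0 libraries for 10, 9 and 7 members in T1, T2 and T3 cells, and above them for 6 each time. Among all genes tested, groups did not overlap for 27.2% below and 29.1% above at T1, 26.6% and 27.6% at T2, and 25.5% and 24.6% at T3. With 1 T1 library left out, the lower members at T1 were 2, Myh7b and Myo5b. Without T0 replicate 3 the lower ones at T1 were 9 and the higher ones 6. At T2, 6 stayed below T0 without T2 replicate 1, 3 or 4, and 2 were above it without T2 replicate 2, 3 or 4. Each of these lower counts includes Myo5b.

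**Figure D2:**
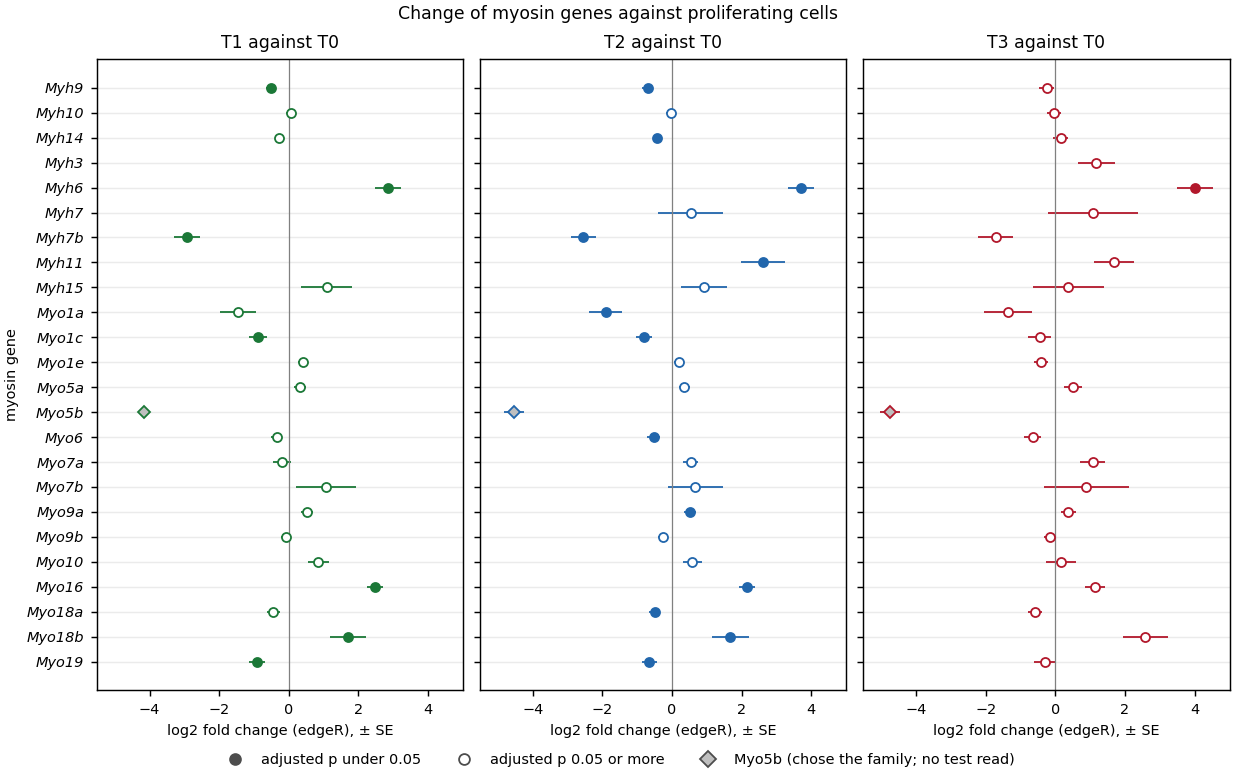
Log2 fold change (edgeR) of the myosin genes described, at T1, T2 and T3 against T0, with bars of 1 standard error. Filled circles passed an adjusted p of 0.05 and open circles did not, and the grey diamond is Myo5b, for which no test is used. Genes lie on both sides of 0 at each time point, from -4.76 for Myo5b to 4.02 for Myh6 at T3.

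Of the nonmuscle class II genes, Myh9 and Myh14 fell while Myh10 passed no test. Myh9 encodes the heavy chain of nonmuscle myosin IIA (chr15:77591017-77672605), a motor of the contractile cortex. It stood at 237, 229 and 188 CPM at T0, at 159, 173 and 135 CPM at T1, at 131, 169, 107 and 130.2 CPM at T2, and at 154 and 211 CPM at T3. All T1 and T2 libraries lay below all T0 libraries, while T3 overlapped them. On the log2 scale, its differences from T0 were -0.50 ± 0.14 at T1, -0.70 ± 0.16 at T2 and -0.25 ± 0.21 at T3 (SE), and edgeR gave an adjusted p of 0.037, 0.0093 and 0.49. The T1 call was lost without T0 replicate 1 or 2 or any T1 library, while the T2 call was kept under all 13 alternatives.

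Myh14, the heavy chain of nonmuscle myosin IIC, stood at 109, 116 and 105 CPM at T0, then at 92.5, 85.9 and 95.1 CPM at T1. It was at 75.9, 85.7, 84.4 and 81.0 CPM at T2, and at 96.1 and 146 CPM at T3. The T1 and T2 libraries lay below T0, and the T3 libraries lay on either side of it. The log2 fold change was -0.28 (SE 0.11, edgeR adjusted p = 0.079) at T1, -0.43 (SE 0.09, edgeR adjusted p = 0.0078) at T2 and 0.15 (SE 0.21, edgeR adjusted p = 0.69) at T3. The T1 value was -0.32 and passed without T0 replicate 3 (edgeR adjusted p = 0.013). The T2 call was lost with the replicate number as a block (edgeR adjusted p = 0.056). Myh10, the heavy chain of nonmuscle myosin IIB and the form known best from neurons, ranged from 388 to 568 CPM, with overlapping groups. Against T0, edgeR fitted 0.07 ± 0.14, -0.04 ± 0.13 and -0.03 ± 0.20 log2 units (SE) for the 3 later time points, at an adjusted p of 0.74, 0.82 and 0.94.

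The balance of Myh9 to Myh10 within each library was compared as 1 value, which does not depend on the scaling between libraries. The log2 ratio of their counts was -1.02, -1.17 and -1.21 at T0 and -1.69, -1.71 and -1.67 at T1. It was -1.79, -1.72, -1.94 and -1.73 at T2, and -1.81 and -0.88 at T3. Every T1 and T2 library and T3 replicate 1 lay below T0, and T3 replicate 4 lay above it. The mean was -1.13 ± 0.0994 at T0 (SD, n = 3) and -1.66 ± 0.304 over the 9 differentiating libraries, a difference of -0.526 (exact two-sided permutation test over 220 regroupings, p = 0.018, adjusted over 3 such values 0.054). Without any 1 T0 library p was 0.055. Myh9 made up 27.0% ± 1.45 of the nonmuscle class II counts in T0 cells and 20.7% ± 0.271, 19.7% ± 1.34 and 23.9% ± 6.21 (SD) in the later ones, and Myh10 59.3%, 67.0%, 68.2% and 60.2%.

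**Figure D3:**
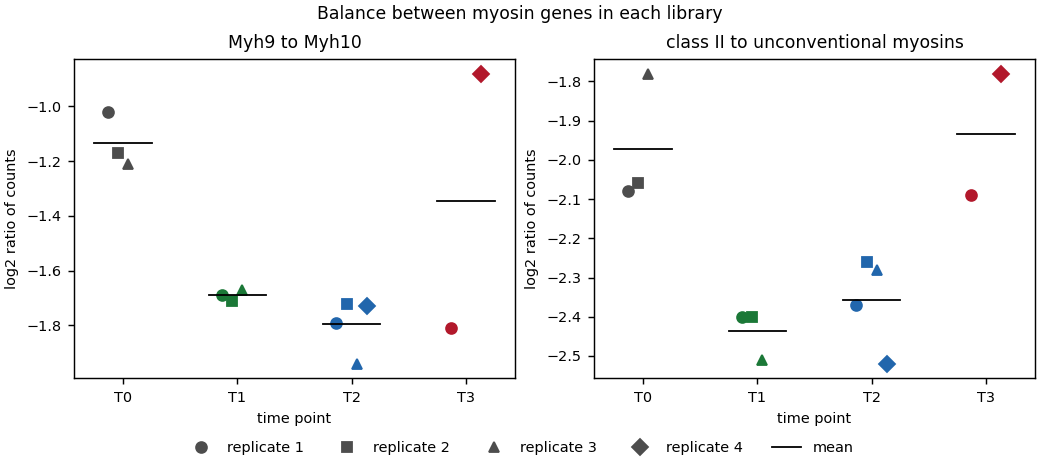
Log2 ratio of Myh9 to Myh10 counts (left) and of all class II to all unconventional myosin counts (right) in each library by time point, with symbols for the replicate number and a line at the mean. On the left the T1 and T2 libraries lie between -1.94 and -1.67, below the 3 T0 libraries, and T3 replicate 4 stands at -0.88.

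Summed over the family, unconventional myosins gave more counts than class II myosins in each library. The log2 ratio of class II to unconventional counts was -2.08, -2.06 and -1.78 at T0, -2.40, -2.40 and -2.51 at T1, -2.37, -2.26, -2.28 and -2.52 at T2, and -2.09 and -1.78 at T3. The T1 and T2 libraries lay below T0. T3 replicate 1 lay just below the lowest T0 library, and T3 replicate 4 lay level with T0 replicate 3, the highest. T0 and the 9 later libraries differed by -0.318 (exact two-sided permutation test, p = 0.041, adjusted over 3 values 0.061), and without T0 replicate 3 by -0.22 (p = 0.24 by the same exact test). Without any 1 T1 or T2 library the exact test gave p from 0.055 to 0.073, and in FPKM p = 0.66. Without T0 replicate 1 or 2 or either T3 library it gave 0.0061 to 0.042. The summed CPM of the family was 4060 ± 655 at T0 and 4389 ± 596 in the later libraries (exact permutation p = 0.44). That difference of 329 CPM turned to -47.9 CPM without T0 replicate 3. Both the unconventional sum and the family sum include Myo5b, which chose the family, and neither was tested without it. Myo5b had 410 to 432 counts in the T0 libraries, of 46847 to 65007 on all myosin genes, and 10 to 34 counts later.

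Among the 11 muscle class II genes, Myh6 rose and Myh7b fell by larger folds than any nonmuscle class II member. Myh6 encodes the alpha heavy chain of heart muscle (chr14:55560758-55585764). It stood at 1.27, 1.38 and 0.565 CPM at T0, at 7.38, 9.87 and 6.26 CPM at T1, at 15.8, 16, 15.6 and 8.77 CPM at T2, and at 23.3 and 11.3 CPM at T3. Every later library lay above all T0 libraries. The fitted log2 differences from T0 came to 2.85 ± 0.37, 3.70 ± 0.37 and 4.02 ± 0.51 (SE), for which the adjusted p by edgeR was 0.0023, 0.00017 and 0.021, and the T3 call was lost without T0 replicate 1 or 2 or either T3 library. Per length its level stayed low, with means of 0.0741 FPKM at T0 and 1.26 FPKM at T3. Its neighbour Myh7, the beta heavy chain of heart and slow muscle, was at 2.08 CPM or less in each library and passed no test with all libraries in. At T0 it was at 0, 0.207 and 1.84 CPM, and without T0 replicate 3, the high one, it was called higher at T2, by 3.1 on the log2 scale (edgeR adjusted p = 0.011). The transcripts of Myh6 and Myh7 share 1373 words of 50 bases, 22.1% and 21.4% of their own. Reads that lie wholly within shared parts could not be placed on 1 of the genes.

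Myh7b, a slow muscle heavy chain related to Myh7 (chr2:155436948-155460043), stood at 6.87, 6.16 and 13.1 CPM at T0, then at 0.944, 1.36 and 1.16 CPM at T1. It was at 1.35, 2.14, 1.1 and 1.35 CPM at T2, and at 1.91 and 3.34 CPM at T3. All later libraries lay below T0. On the log2 scale, its differences from T0 were -2.92 ± 0.38 at T1, -2.55 ± 0.35 at T2 and -1.72 ± 0.49 at T3 (SE), and edgeR gave an adjusted p of 0.0022, 0.0008 and 0.099. Without T0 replicate 3, the highest library, they were -2.49, -2.13 and -1.32. Myh7b shares 37 exon bases with Trpc4ap on the other strand, and the library kit does not mark strand.

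Myh6, Myh7 and Myh7b are known to carry microRNAs in their introns, and the annotation places Mir208a in Myh6 (chr14:55567897-55567979), Mir208b in Myh7 (chr14:55594537-55594613) and Mir499 in Myh7b (chr2:155448616-155448694). They are shown since the host genes Myh6 and Myh7b moved in opposite directions while the mature microRNAs have like seeds. The third host gene, Myh7, passed no test with all libraries in. The sequences are from RefSeq (GRCm38.p6), with the seed, bases 2 to 8, in capitals.
mmu-miR-208a-3p (Myh6): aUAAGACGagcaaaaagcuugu
mmu-miR-208b-3p (Myh7): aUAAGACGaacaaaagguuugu
mmu-miR-499-5p (Myh7b): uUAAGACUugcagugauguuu
The microRNAs of Myh6 and Myh7 have the seed UAAGACG and that of Myh7b has UAAGACU. Mature microRNAs were not measured by these libraries.

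Myh11, the smooth muscle heavy chain, was tested at T2 and T3. It stood at 0.224, 0.415 and 0.282 CPM at T0, at 0.772, 0.678 and 0.791 CPM at T1, at 0.579, 2.79, 1.19 and 3.01 CPM at T2, and at 0.748 and 1.29 CPM at T3. All later libraries lay above T0, and the T2 libraries spread over 0.579 to 3.01 CPM. The log2 fold change was 2.61 (SE 0.64, edgeR adjusted p = 0.012) at T2 and 1.69 (SE 0.57, edgeR adjusted p = 0.13) at T3. With 3, 6 and 4 counts at T0, Myh11 passed the filter on low counts at T2 only through T2 libraries. Without T2 replicate 2, 3 or 4 it was not tested, so the T2 call depends on the group where it was high. Myh15 was at 0.0706 to 3.00 CPM and Myh3, the embryonic skeletal form, at 0.184 to 1.08 CPM, and neither passed a test. The skeletal muscle genes Myh1, Myh2, Myh4, Myh8 and Myh13, which lie together on chromosome 11, had too few counts for the test.

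Markers of muscle cells were read beside these genes. Of 13 striated muscle markers, Tnnt2, Tnni1, Tnni2, Myod1 and Myog had at most 3 counts in any library. The list summed to 4.66 to 11.4 CPM at T0, 16.3 to 26.7 at T1, 9.57 or more but below all T1 libraries at T2, and 7.57 to 10.7 at T3. Its leading gene at T1 was Actc1, with 21.4, 19.4 and 11.8 CPM. Of 7 markers of mural and smooth muscle cells, Cnn1, Rgs5, Pdgfrb and Myocd were at 3 counts or fewer in each library, and the list summed to 1.72 to 2.33 CPM at T0 and to 2.16 to 4.85 CPM later. The part of the remaining markers in the values of Myh6, Myh11 and Myo18b was not tested.

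Class I myosins are single-headed motors that link membranes to actin. Among them Myo1c fell by T2, as did Myo1a, which needed the T0 libraries to pass the filter on low counts. Myo1e passed no test against T0 where the 2 time points were fitted alone with all libraries in.

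Myo1c, a widely expressed motor of membrane tension and exocytosis, stood at 48.1, 50.5 and 92.6 CPM at T0, at 32.2, 36.2 and 36.2 CPM at T1, at 35.9, 40.6, 28.9 and 39.6 CPM at T2, and at 40.3 and 51.9 CPM at T3. T1 and T2 lay below T0 and T3 overlapped it, and T0 replicate 3 was far above the other T0 libraries. The fitted log2 differences from T0 came to -0.88 ± 0.26, -0.81 ± 0.24 and -0.45 ± 0.33 (SE), for which the adjusted p by edgeR was 0.041, 0.026 and 0.44. Without T0 replicate 3 the falls were smaller, -0.51 at T1 and -0.44 at T2, and still passed, with edgeR adjusted p = 0.002 and 0.018, and the T3 value was -0.09. The T1 call was lost without any 1 T1 library, and the T2 call without T2 replicate 1, 3 or 4.

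Myo1a, the motor of the intestinal brush border, stood at 1.57, 2.63 and 1.13 CPM at T0, then at 0.944, 0.753 and 0.304 CPM at T1. It was at 0.869, 0.371, 0.365 and 0.307 CPM at T2, and at 0.333 and 1.08 CPM at T3. All later libraries lay below T0, at levels of few reads. On the log2 scale, its differences from T0 were -1.46 ± 0.51 at T1, -1.91 ± 0.47 at T2 and -1.35 ± 0.69 at T3 (SE), and edgeR gave an adjusted p of 0.068, 0.011 and 0.27. The T1 value was -1.73 and passed without T0 replicate 3 (edgeR adjusted p = 0.011). It also passed in 1 edgeR fit of all 12 libraries (adjusted p = 0.046). Myo1a needed the T0 libraries, where it was high, to pass the filter on low counts, so its calls depend on that group. Between later time points Myo1a was not tested. Myo1e, a motor of endocytosis, had means of 94.1, 125, 107 and 70.2 CPM. Against T0, edgeR fitted 0.40 ± 0.14, 0.20 ± 0.15 and -0.41 ± 0.19 log2 units (SE) for the 3 later time points, at an adjusted p of 0.073, 0.33 and 0.23. Myo1e was called higher at T1 and lower at T3 without T0 replicate 3 (edgeR adjusted p = 0.034 at T3). With all 12 libraries in 1 edgeR fit it was also called higher at T1.

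Class V myosins carry vesicles and organelles on 2 heads, Myo5a mainly in neurons and pigment cells and Myo5b with Rab11 on recycling endosomes. Myo5b (chr18:74600590-74931147), the gene that chose the family, stood at 31.3, 29.9 and 28.9 CPM at T0, then at 1.80, 1.66 and 1.58 CPM at T1. It was at 0.966, 0.928, 0.914 and 2.09 CPM at T2, and at 0.915 and 1.29 CPM at T3. The T0 libraries lay close together, and each later library was far below the lowest of them. The fitted log2 fold changes were -4.17, -4.54 and -4.76, given with no test. Between later time points the fitted log2 differences were -0.38 from T1 to T2 and -0.21 from T2 to T3, also given with no test. Its share of class V counts was 8.0% ± 1.03 (SD) in T0 cells and 0.388% ± 0.0643, 0.284% ± 0.152 and 0.245% ± 0.135 in the later ones. Myo5a (chr9:74918822-75071495) ranged over 289 to 394 CPM in the T0 libraries, 356 to 521 in T1, 374 to 543 in T2, with 379 and 611 CPM in T3. Its groups overlapped, and the differences from T0 of 0.32 ± 0.18, 0.35 ± 0.16 and 0.51 ± 0.26 log2 units (SE) had an edgeR adjusted p of 0.22, 0.12 and 0.28. Myo5c, its neighbour (chr9:75079821-75153258), had at most 8 counts in a library.

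Myo6 encodes the motor that walks towards the minus end of actin and serves endocytosis (chr9:80012838-80159536). It stood at 653, 665 and 452 CPM at T0, at 462, 481 and 452 CPM at T1, at 390, 490, 329 and 425 CPM at T2, and at 317 and 427 CPM at T3. T0 replicate 3 lay at the level of T1, so that T1 and T2 overlapped T0 and T3 lay below it. The fitted log2 differences from T0 came to -0.35 ± 0.17, -0.53 ± 0.18 and -0.65 ± 0.25 (SE), for which the adjusted p by edgeR was 0.15, 0.045 and 0.17. Without T0 replicate 3 they were -0.51, -0.69 and -0.82, with edgeR adjusted p = 0.00079, 0.0021 and 0.035. The T2 call was lost without T0 replicate 1 or 2 or T2 replicate 1, 3 or 4.

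Class IX myosins carry a domain that switches off small GTPases. Myo9a stood at 93.0, 99.2 and 67.7 CPM at T0, at 126, 143 and 109 CPM at T1, at 118, 152, 115 and 110.1 CPM at T2, and at 122 and 99.0 CPM at T3. T1 and T2 lay above T0, and T3 overlapped it. On the log2 scale, its differences from T0 were 0.53 ± 0.18 at T1, 0.52 ± 0.17 at T2 and 0.37 ± 0.22 at T3 (SE), and edgeR gave an adjusted p of 0.06, 0.036 and 0.35. Leaving out T0 replicate 3 gave 0.38 at T1, which passed (edgeR adjusted p = 0.023). The T1 difference also passed by DESeq2 (DESeq2 adjusted p = 0.036) and in 1 edgeR fit of all 12 libraries (adjusted p = 0.025). With the replicate number as a block it passed too (edgeR adjusted p = 0.027). The T2 call was lost without T0 replicate 1 or any 1 T2 library (edgeR adjusted p from 0.054 to 0.081). Myo9b had means of 163, 154, 135 and 146 CPM and passed no test with all libraries in, though it was called lower at T2 without T2 replicate 2 (edgeR adjusted p = 0.043). The class VII members Myo7a and Myo7b, motors of stereocilia and of the brush border, were at 1.37 to 4.41 and 0 to 1.66 CPM. Neither passed a test where the 2 time points were fitted alone. Myo7a was at 1.66 to 1.87 CPM at T0, then at 2.80 and 4.41 CPM at T3. That log2 difference was 1.07 (SE 0.37, edgeR adjusted p = 0.14), and it passed in 1 edgeR fit of all 12 libraries (adjusted p = 0.011).

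Myo10 (chr15:25552280-25743428) stood at 1420.4, 1484 and 659 CPM at T0, at 2145, 2315 and 2004 CPM at T1, at 1754, 1859, 1461 and 2020.1 CPM at T2, and at 1671 and 966 CPM at T3. All T1 libraries lay above T0, whereas T2 and T3 overlapped it. T0 replicate 3 and T3 replicate 4 were the low libraries of their groups. Against T0, edgeR fitted 0.85 ± 0.30, 0.58 ± 0.27 and 0.16 ± 0.43 log2 units (SE) for the 3 later time points, at an adjusted p of 0.07, 0.11 and 0.84. With all libraries in, the T1 difference passed by DESeq2 (0.84, DESeq2 adjusted p = 0.021) and in 1 edgeR fit of all 12 libraries (0.86, adjusted p = 0.028). Without T0 replicate 3 the T1 difference was smaller, 0.56, and passed the threshold (edgeR adjusted p = 0.002). The T2 difference was then 0.29 (edgeR adjusted p = 0.089), and the T3 difference turned to -0.13 (edgeR adjusted p = 0.77).

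Myo16, an unconventional myosin of the brain whose tail binds phosphatidylinositol 3-kinase signalling proteins (chr8:10272572-10634741), had the largest rise among the unconventional members at T1 and T2. It stood at 26.4, 26.6 and 15.2 CPM at T0, at 129, 138 and 118 CPM at T1, at 90.1, 121, 85.0 and 107 CPM at T2, and at 54.2 and 45.4 CPM at T3. Every later library lay above T0, and the T3 libraries lay below all T1 and T2 libraries. The fitted log2 differences from T0 came to 2.48 ± 0.23, 2.15 ± 0.23 and 1.14 ± 0.29 (SE), for which the adjusted p by edgeR was 0.00069, 0.00023 and 0.079. The calls at T1 and T2 were kept under all 12 and 13 alternatives. At T3 the value without T0 replicate 3 was 0.92, with edgeR adjusted p = 0.021.

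The class XVIII members moved apart. Myo18a, which links Golgi membranes to actin (chr11:77576748-77679482), stood at 289, 295 and 403 CPM at T0, at 259, 269 and 205 CPM at T1, at 233, 266, 223 and 208 CPM at T2, and at 232 and 201 CPM at T3. All later libraries lay below T0. On the log2 scale, its differences from T0 were -0.44 ± 0.18 at T1, -0.50 ± 0.15 at T2 and -0.59 ± 0.21 at T3 (SE), and edgeR gave an adjusted p of 0.1, 0.026 and 0.15. Without T0 replicate 3 the change at T1 was -0.27 (edgeR adjusted p = 0.083) and at T2 -0.33 (edgeR adjusted p = 0.021), and the T2 call was lost without T2 replicate 1, 3 or 4. Myo18b, known from the sarcomere of muscle, stood at 1.57, 0.83 and 0.282 CPM at T0, at 3.18, 2.34 and 3.28 CPM at T1, at 1.64, 3.90, 2.38 and 3.43 CPM at T2, and at 4.41 and 6.36 CPM at T3. All later libraries lay above T0. Against T0, edgeR fitted 1.70 ± 0.52, 1.68 ± 0.52 and 2.59 ± 0.65 log2 units (SE) for the 3 later time points, at an adjusted p of 0.045, 0.031 and 0.077. These calls were lost without T0 replicate 2, without any 1 T1 library at T1, and without T2 replicate 2, 3 or 4 at T2. Leaving out T0 replicate 3 put Myo18b at 2.17 at T3, which passed (edgeR adjusted p = 0.031).

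Myo19, the myosin of mitochondria (chr11:84693650-84724728), stood at 39.7, 36.2 and 67.2 CPM at T0, then at 25.5, 27.4 and 23.9 CPM at T1. It was at 32.9, 34.3, 28 and 25.9 CPM at T2, and at 34.8 and 42.0 CPM at T3. T1 and T2 lay below T0, and T3 overlapped it. The fitted log2 differences from T0 came to -0.91 ± 0.24, -0.65 ± 0.22 and -0.30 ± 0.31 (SE), for which the adjusted p by edgeR was 0.03, 0.043 and 0.57. Without T0 replicate 3 they were -0.58, -0.33 and 0.02, and the T2 change missed the threshold (edgeR adjusted p = 0.053). The T1 call was lost without any 1 T1 library, and the T2 call without any 1 T2 library. Myo19 shares 383 exon bases with Pigw and Znhit3 on the other strand.

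**Figure D4:**
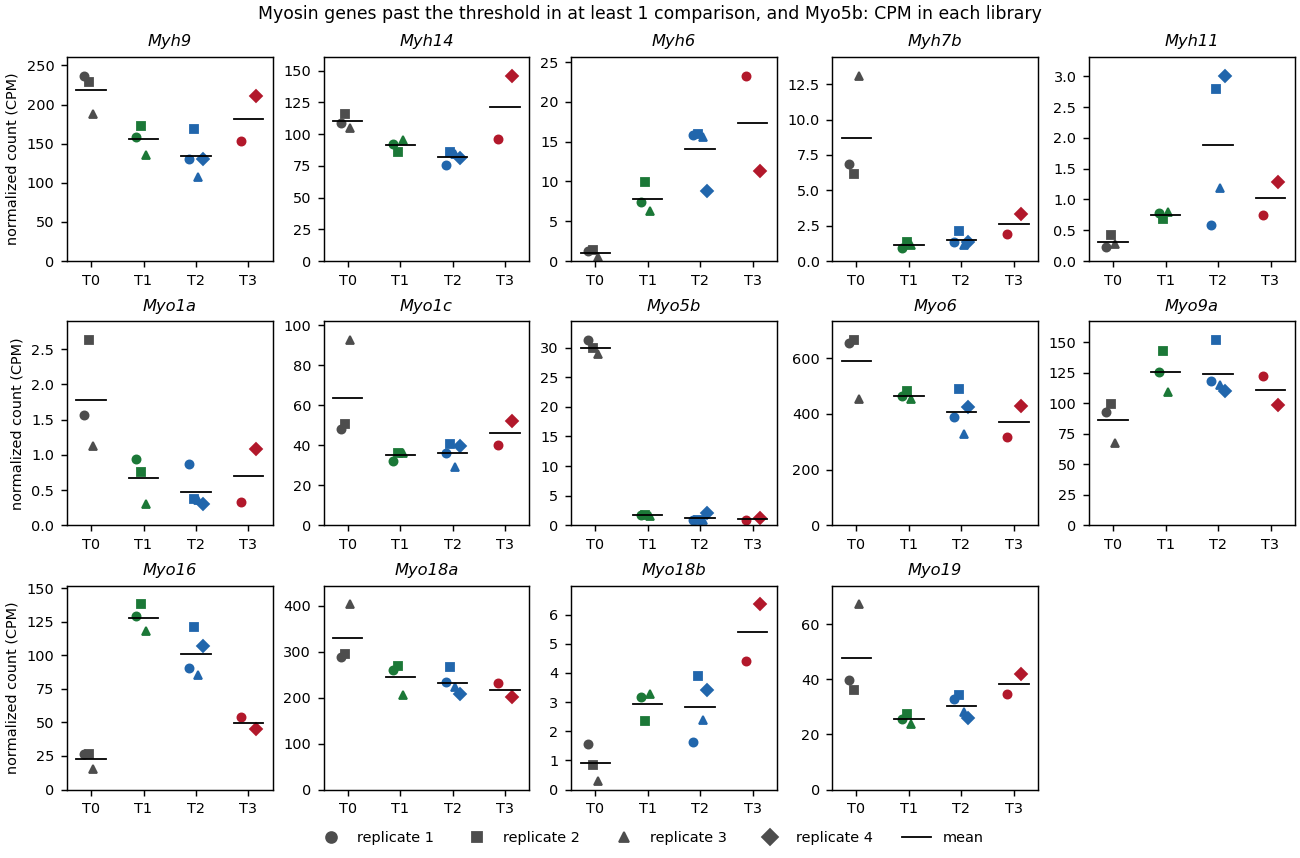
Normalized counts (CPM, linear axes from 0) of myosin genes that passed the threshold in at least 1 comparison, and of Myo5b, shown as a description, with 1 symbol per library by replicate number and a line at the mean of each time point. Myo5b drops from 28.9 to 31.3 CPM at T0 to 2.09 CPM or less, and Myo16 climbs to 118 to 138 CPM at T1 and lies at 45.4 and 54.2 CPM at T3.

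The steps between later time points changed few members. Of 23 members tested, 0 differed between T1 and T2 by edgeR, beside 0.63% of all genes tested. At an unadjusted p under 0.05 there were 6, and DESeq2 called 1, Myh6. Same-numbered T1 and T2 libraries deviated together, but so did T1 replicate 3 and T2 replicate 4 (r = 0.45), so the number need not mark a pairing. With the replicate number as a block edgeR called 2 members, Myh6 above and Myo1e below T1. The T2 libraries lay below all T1 libraries for 2 members and above them for 1, beside 5.52% and 6.52% of all genes. Between T2 and T3, 1 of 24 members was lower (4.17%), beside 0.691% of all genes lower, and 0 were higher, beside 0.5%. That gene was Myo16, which fell by 1.01 on the log2 scale (SE 0.16, edgeR adjusted p = 0.044). Its adjusted p ranged from 1.1e-05 to 0.15 over the 11 alternatives, of which 4 kept the call, and with the replicate block 0 members were called. The T3 libraries lay below all T2 libraries for 2 members and above them for 5, beside 12.9% and 12.7% of all genes. DESeq2 called 3 members in this step, Myo16 and Myo1e lower and Myh14 higher.

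The 13 members with too few counts for any test had at most 16 counts in a library and at most 68 in all. They were the skeletal genes named above, Myo1d, Myo1f, Myo1g and Myo1h of class I, Myo3a and Myo3b of class III and Myo15, motors of stereocilia, and Myo5c. By edgeR with the filter on low counts no change in them was tested. Myh13 was called higher at T1 than at T0 by DESeq2 and by edgeR without that filter, at 0 to 0.0692 CPM at T0 and 0.243 to 0.601 CPM at T1.

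Genes that work with myosins were counted on a list of 80 light chains, kinases and phosphatase subunits, adaptors, chaperones and tropomyosins, of which 79 are in the files. In T1 cells 6 of 59 tested were lower and 15 higher than in T0 cells, beside 16.8% lower and 15.1% higher of all genes. In T2 cells they were 9 and 17 of 60, beside 21.8% and 21.4%, and in T3 cells 1 and 1 of 62, beside 1.41% and 3.31%. Adaptors and Rab partners had 7 of 18 higher and 0 lower at T1, and the kinases and phosphatase genes 4 of 22 higher and 3 lower. Cit, the citron kinase of the cytokinetic ring, was at 36.4 to 42.5 CPM at T0, then at 1.16 to 5.66 CPM at T1, and its later log2 differences of -3.72 ± 0.49, -3.32 ± 0.49 and -1.78 ± 0.32 (SE) had an edgeR adjusted p of 0.0023, 0.0011 and 0.042. Anln, the anillin that binds myosin II in that ring, changed by -3.63 (SE 0.31, edgeR adjusted p = 0.00058) at T1 and by -2.96 (SE 0.26, edgeR adjusted p = 0.00011) at T2, and its T3 difference of -1.49 (SE 0.41, edgeR adjusted p = 0.09) missed the threshold. Spire2, an actin nucleator that works with class V myosins on vesicles, rose by 2.99 ± 0.30, 3.18 ± 0.27 and 3.43 ± 0.49 on the log2 scale (SE, edgeR adjusted p of 0.00089, 0.0001 and 0.027).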

How the data were processed

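Poly(A) RNA of 12 libraries was made into TruSeq v2 libraries and sequenced on a HiScanSQ. Per the labels' processing notes the submitters used TopHat2 2.0.6 and Bowtie 0.12.7.0 on mm9 and HTSeq 0.6.0, with no strand setting given in the sources used here. The authors deposited raw counts per gene and a table of FPKM values, whose tool is not given in the sources used here. The 5 entries that name no gene were left out, of which reads on no gene were 13.3% to 24.1% of uniquely aligned reads. HTSeq set aside 26.0% to 39.0% of its entries for aligning at several places, so close paralogs may be undercounted.

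Counts were scaled by TMM, low genes removed with filterByExpr, and the 2 time points of each comparison fitted alone with edgeR 4.0.16 in R 4.3.3 (quasi-likelihood test, Benjamini-Hochberg over all genes tested, threshold 0.05). SE is the log2 fold change divided by the root of F. The CPM printed use TMM over all 12 libraries. FPKM were given as levels with no test. Single values were compared by exact permutation. Alternatives were DESeq2 1.42.0 (log2 fold changes not shrunk), median-of-ratios scaling, no filter, 1 fit of all libraries, each library left out, a replicate block and, added after seeing the data, replicates 1 and 2 only. The fits were tested on simulated data. Same-numbered T1 and T2 libraries correlated in their deviations from the group means (r from 0.21 to 0.44 in 3 pairs), T0 with T1 at 0.00 to 0.15 and T0 with T2 at -0.15 to 0.03. Of differently numbered T1 and T2 libraries, T1 replicate 3 and T2 replicate 4 had r = 0.45, and the other pairs -0.39 to 0.07.

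Positions are from GENCODE vM1 on NCBIM37, where all 38 members overlapped their position in the FPKM table. One member is in the counts of members and is not reported here by name. The other members tested in any comparison are named by class, with each library's value where a call was made or the mean FPKM was among the top 3. Partner genes named are the 3 with the largest called change. Members and lists were chosen with earlier results of these data known.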

Additional observations from a re-analysis of the deposited data

Results flagged for a closer look

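In 5 of 28 tests of the T2 libraries, 1 library lay far from the other three, with a gap that was a larger part of the range than Dixon's 95% critical value for 4 libraries, which chance passes in about 1 in 20 groups. For Myh6 the gap was 0.952 of the range, with T2 replicate 4 at 8.77 CPM and the others at 15.6 to 16 CPM. For Myo5b it was 0.956, with T2 replicate 4 at 2.09 CPM above 0.914 to 0.966 CPM, and without that library the log2 fold change against T0 was -5.00. For Myo1e it was 0.849, with T2 replicate 4 at 132 CPM above 96.8 to 102 CPM. For Myo1a it was 0.885, with T2 replicate 1 at 0.869 CPM above 0.307 to 0.371 CPM. For Myo7b it was 0.843, with T2 replicate 3 at 1.37 CPM above 0.736 to 0.836 CPM.

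Myo16 differed from T0 by less at T3 than at T2, and the test between T3 and T2 gave a log2 fold change of -1.01 (edgeR adjusted p = 0.044).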

How the results depend on the processing

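Median-of-ratios scaling changed none of the member counts by over 1.5 times. DESeq2 gave 6 higher members at T1, 3 lower and 3 higher at T3, 1 between T1 and T2 and 3 between T2 and T3. The 6 were Myh6, Myh13, Myo9a, Myo10, Myo16 and Myo18b. One fit of all 12 libraries gave 6 higher at T1, 5 lower and 4 higher at T3, and 0 between T2 and T3. Its 6 were Myh6, Myo1e, Myo9a, Myo10, Myo16 and Myo18b, and Myo7a was among the 4. Without the filter on low counts 3 were higher at T3 and 3 called between T2 and T3. Replicates 1 and 2 only, chosen after seeing the data, gave 10 lower and 7 higher at T1.

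With 1 library left out, the lower and higher members were 2 to 9 and 2 to 6 at T1, 6 to 10 and 2 to 6 at T2, 0 to 4 and 0 to 3 at T3, and 0 to 3 were called between T2 and T3. Where this left T3 with 1 library, that library is assumed to vary like T0 or T2.

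The replicate block gave 5 lower and 3 higher members at T2, 2 called between T1 and T2 and 0 between T2 and T3. With it the T2 calls of Myh14, Myo1a, Myo1c, Myo18a, Myo18b and Myo19 were lost, and so were the T1 calls of Myo18b and Myo19. T0 and T1 or T2 share only numbers. No block was possible between T3 and T0, which share 1 number.

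The summed CPM difference ranged from -47.9 (without T0 replicate 3) to 547 with 1 library left out, and was -77.8 in FPKM. The difference of the Myh9 to Myh10 ratio ranged from -0.623 to -0.47 with 1 library left out. The class II difference ranged from -0.382 to -0.22, and was -0.091 in FPKM. With 1 library left out, log2 fold changes changed sign over ranges of -0.02 to 0.17 for Myh10 at T1, -0.14 to 0.01 at T2 and -0.28 to 0.18 at T3, and at T3 from -0.19 to 0.42 for Myh14, -0.28 to 0.5 for Myo10 and -0.46 to 0.02 for Myo19. In replicates 1 and 2 only, Myh10 was at 0.01 at T2. Sign also changed, over all alternatives, for Myh7 at T2 (-0.03 to 3.1), Myo7b at T2 (-0.11 to 2.09) and T3 (-0.41 to 1.51), Myh15 at T3 (-0.25 to 0.95), Myo1e at T2 (-0.07 to 0.29) and Myo9b at T3 (-0.34 to 0.02). None of these had passed the threshold with all libraries in. Changes of members with under 1 CPM rest on few reads.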
